A study of Mus musculus with 2 samples.

Results

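Cyp26b1-high LSECs were liver sinusoidal endothelial cells of control mice whose barcodes held at least 2 UMIs of Cyp26b1, the gene of a retinoic acid-degrading enzyme. They were chosen from the raw UMI counts of the control library. A barcode counted as endothelial with at least 1500 UMIs, 750 genes and 2 UMIs of Pecam1, Cdh5 and Ptprb together, and with 0 UMIs of Ptprc, Adgre1, Cd79a and Dcn. It also had to hold 0 UMIs of Vwf, 0 of Rspo3 and at most 2 of the interferon-induced genes Cxcl9, Cxcl10 and Rsad2 together. Of 12755 barcodes in the series and 5664 in the control library, 1987 passed this gate, and 729 of them were Cyp26b1-high (36.7%, exact 95% interval 34.6 to 38.9%). A further 242 barcodes held 1 Cyp26b1 UMI and 1016 held none, and the latter, called Cyp26b1-zero, are the reference below. The Cyp26b1 counts chose the members, so every difference between the groups is given as a description with no test.

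The study asked what the transcription factor c-Maf does in LSECs, and measured single-cell transcriptomes of LSECs by droplet-based 3′ sequencing. The knockout mice, Maf LSEC-KO, carried a Clec4g-iCre transgene, whose promoter is active in LSECs, and 2 floxed Maf alleles. Controls were littermates without the Cre transgene and with floxed Maf alleles, called WT in the labels. Livers of 3 mice were pooled per library, and endothelial cells were enriched with CD146 beads after a density gradient. The sex and age of the pooled mice are not given for this experiment. There was 1 library per condition, so no value below has a replicate, intervals cover counting error only, and barcodes of the 3 mice cannot be told apart.

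Retinoic acid is made from retinol by way of retinal, and it acts through the nuclear receptors RARα, RARβ and RARγ paired with RXR. CYP26 enzymes hydroxylate retinoic acid and so end its action, and DHRS3 reduces retinal back to retinol and so limits its synthesis. Cyp26, Dhrs3 and Rarb genes are themselves classical transcriptional targets of retinoic acid. In the liver, vitamin A is stored mainly in hepatic stellate cells, which lie in the space of Disse beside the sinusoidal endothelium.

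The start regions of these 3 genes are shown because Rarb is the textbook case of a gene with a retinoic acid response element next to its start. Such an element of the DR5 type is a pair of direct repeats of 6 bases with 5 bases between them. Only the last 5 bases of each repeat were searched, so the 6 open bases of a search word are the 5 between the repeats and the first base of the second repeat, and the first base of the first repeat is not in the word. The words, searched on both strands, were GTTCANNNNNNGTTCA, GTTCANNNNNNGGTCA, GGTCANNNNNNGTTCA and GGTCANNNNNNGGTCA. Each sequence is a RefSeq window on GRCm38.p6 from 250 bases before to 50 bases after the start, 5′ to 3′ on the gene's strand, with a DR5 match in capitals. Cyp26b1 (ENSMUSG00000063415) is at chr6:84571414-84593908 on the minus strand, Dhrs3 (ENSMUSG00000066026) at chr4:144892827-144928209 on the plus strand and Rarb (ENSMUSG00000017491) at chr14:16430839-16819156 on the minus strand. The Rarb window is chr14:16575427-16575726, at a start that lies inside the annotated gene and not at its outermost one, the Cyp26b1 window chr6:84593761-84594060, and the Dhrs3 window, the first of 3 in RefSeq, chr4:144892577-144892876.
Rarb: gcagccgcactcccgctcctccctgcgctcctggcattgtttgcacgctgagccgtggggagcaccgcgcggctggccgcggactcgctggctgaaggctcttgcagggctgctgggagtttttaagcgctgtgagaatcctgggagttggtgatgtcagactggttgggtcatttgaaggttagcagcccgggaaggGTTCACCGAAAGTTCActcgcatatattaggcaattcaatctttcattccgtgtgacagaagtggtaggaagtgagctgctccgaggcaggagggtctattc
Cyp26b1: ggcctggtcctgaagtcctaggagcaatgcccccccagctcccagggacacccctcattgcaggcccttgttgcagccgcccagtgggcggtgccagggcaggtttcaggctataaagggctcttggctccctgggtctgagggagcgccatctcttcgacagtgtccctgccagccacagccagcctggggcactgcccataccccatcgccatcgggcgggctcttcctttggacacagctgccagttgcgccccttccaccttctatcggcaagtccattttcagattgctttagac
Dhrs3: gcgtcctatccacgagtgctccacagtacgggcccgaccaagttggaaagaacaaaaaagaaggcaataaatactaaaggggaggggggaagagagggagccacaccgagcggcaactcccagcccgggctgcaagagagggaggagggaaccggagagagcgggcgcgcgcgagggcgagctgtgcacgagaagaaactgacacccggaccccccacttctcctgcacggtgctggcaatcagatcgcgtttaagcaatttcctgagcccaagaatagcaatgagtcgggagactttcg
The Rarb window held 1 DR5 match, from base -52 to base -37 relative to the start. The windows of Cyp26b1 and Dhrs3 held none, which says only that these letters are not in these windows. Of 32851 windows in the RefSeq table, 81 (0.247%) held a DR5 match. Among 26 known retinoic acid target genes 16 had a window, and 2 of them, Rarb and Cyp26a1, held a match.

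Cyp26b1 UMIs were spread unevenly over the control LSECs. The 272 barcodes with 12 or more UMIs (13.7% of the gate) carried 72.1% of all Cyp26b1 UMIs. Another 176 barcodes held 6 to 11 UMIs, 119 held 4 to 5, 66 held 3 and 96 held 2. Members carried a median of 12.9 Cyp26b1 UMIs per 10000 UMIs, with a 10th percentile of 3.99, a 90th percentile of 32.1 and a highest value of 66.0. After each barcode of the gate was thinned to 2100 UMIs, which left out 176 shallower barcodes, 26.4% of 1811 barcodes still held at least 2 Cyp26b1 UMIs. At that depth the Fano factor of Cyp26b1 (variance over mean across barcodes) was 4.09. Among 154 genes of like mean, Cyp26b1 included, the median was 1.28, the 90th percentile 1.65, and 0 genes had a higher value. Cyp26b1 was chosen with earlier results of these data known, so its rank is a description and no test.

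**Figure D1:**
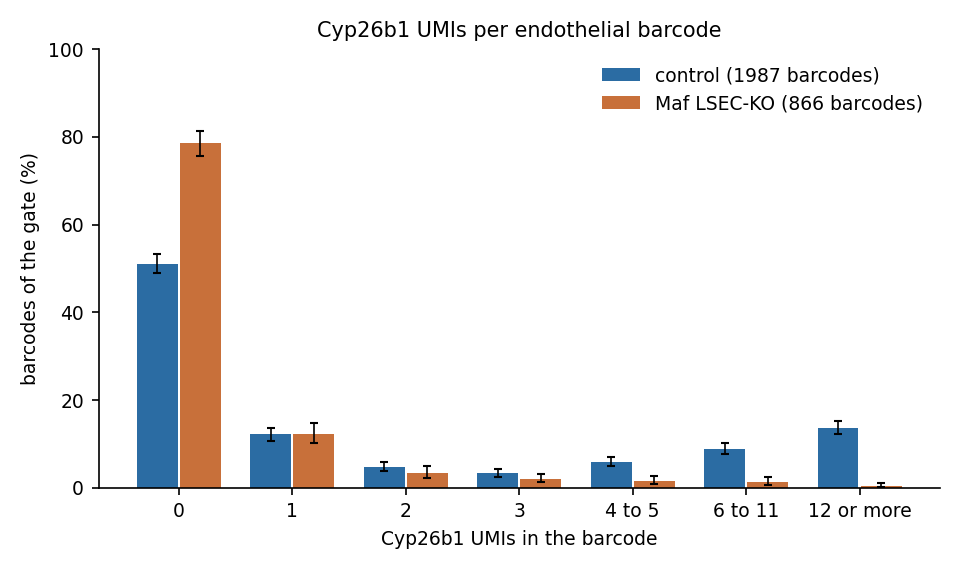
Percent of the barcodes of the gate (y axis) by number of Cyp26b1 UMIs (x axis) in the control (blue) and Maf LSEC-KO (orange) libraries, with exact 95% intervals. Barcodes with 12 or more UMIs were 13.7% of the control gate and 0.462% of the Maf LSEC-KO gate.

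Barcodes of other cells rarely held Cyp26b1. Of 70 barcodes of the control library that were B cell-like, T/NK cell-like or macrophage-like by their marker genes, 1 held a Cyp26b1 UMI and 0 held 2, which allows a share of up to 4.29% by the limit of 3 counts in 70. Their median depth was 4475.5 UMIs, against 5806 in the gate. Endothelial barcodes outside the gate also carried the gene. The level is given in counts per 1000000 UMIs outside the mitochondrial and ribosomal protein genes (CPM). It was 818 in the gate and 944 in 400 barcodes with an Rspo3 UMI, a gene of central vein endothelium and pericentral LSECs. It was 410 in 149 barcodes with a Vwf UMI and 508 in 2034 barcodes over the chemokine limit. The chemokine limit alone left out 1826 of 3813 barcodes, and without the limits on Vwf, Rspo3 and chemokines 1512 of 4306 endothelial barcodes held at least 2 Cyp26b1 UMIs.

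Members carried the marker genes of LSECs. Among the 729 members, 95.2% carried a UMI of Stab1, 94.8% of Stab2, 98.6% of Clec4g and of Dnase1l3, 98.2% of Gpr182 and 100% of Ehd3. Lyve1, a hyaluronan receptor of LSECs, was found in 54.6% of members and 59.6% of Cyp26b1-zero barcodes. Markers of B cells and of T and NK cells stayed under 20 CPM in both groups. The gate had required 0 UMIs of Ptprc and Cd79a, so these low levels were partly set by it. Libraries shared 10 barcode strings, and 0 members were shared with the Maf LSEC-KO gate.

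Members were deeper than Cyp26b1-zero barcodes, with medians of 7645 and 4756 UMIs. To contrast the groups, 630 members were therefore paired with 630 Cyp26b1-zero barcodes within bins of 0.25 on the log2 scale of depth. This gave medians of 6967.5 and 6945 UMIs. The 99 members left out had a median of 13537 UMIs. Levels by number of Cyp26b1 UMIs, in bins along the sinusoid and in the gates of the 2 libraries were not matched for depth. Cyp26b1 itself was left out of the sum behind CPM in both groups. A log2 ratio below is that of CPM in members over CPM in Cyp26b1-zero barcodes, and a gene is counted as higher or lower from 1.5-fold on. Of 7040 genes at 20 CPM or more in either group, 126 (1.79%) were at least 1.5-fold higher in members and 144 (2.05%) at least 1.5-fold lower (3.84% in either direction), and the median log2 ratio was 0.01. Without the limits on Vwf, Rspo3 and chemokines, 73 genes were past that size upward.

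The other enzyme that limits retinoic acid and its most direct receptor target were both higher in members. Dhrs3 stood at 447 CPM in members and 294 CPM in Cyp26b1-zero barcodes, a log2 ratio of 0.60 (95% interval 0.50 to 0.71), and 79.4% of members against 70.6% of Cyp26b1-zero barcodes held a UMI of it. Its ratio lay near the limit of 1.5-fold and went under it, to between 0.54 and 0.58, in 3 of 19 alternatives. Rarb, the receptor RARβ, stood at 68.6 and 38.6 CPM, a log2 ratio of 0.83 (0.53 to 1.13), and was found in 30.0% and 17.1% of barcodes. Among barcodes with no Wnt2 UMI, 261 in each group, the log2 ratio of Rarb was 2.06, and in the deepest of 3 groups of depth it was 0.50 (0.11 to 0.89), short of 1.5-fold.

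Other known targets of retinoic acid lay on both sides. Of 12 tested target genes, 5 were past 1.5-fold higher, 2 past 1.5-fold lower, and the median log2 ratio was 0.39. Tgm2, transglutaminase 2, stood at 361 and 191 CPM (0.92, interval 0.79 to 1.05). Hic1, a transcriptional repressor, stood at 49.0 and 26.8 CPM (0.87). Nrip1, a corepressor of nuclear receptors, stood at 269 and 173 CPM (0.64, interval 0.49 to 0.78), which fell short of 1.5-fold in 7 of 19 alternatives, with 0.26 as the lowest. Cd38 and Hoxa5 both had a log2 ratio of 0.39, short of that size. Of the lower genes, Egr1, an immediate early transcription factor, stood at 51.4 and 109 CPM (-1.09). Dhrs3 and Rarb, named as markers of this subset, are in the same list, so its median is not independent of that choice.

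Among retinoic acid receptors and their cofactors, 3 of 14 tested genes were past 1.5-fold higher and 0 lower, and these were Rarb, Nrip1 and Rarg. Rarg, the receptor RARγ, stood at 142 and 92.0 CPM (0.63, interval 0.43 to 0.82), but was under 1.5-fold in 12 of 19 alternatives, down to 0.48. Rara, the receptor RARα, stood at 29.7 and 32.1 CPM (-0.11, interval -0.49 to 0.27), and Rxra, the partner receptor RXRα, at 75.6 and 76.6 CPM (-0.02, interval -0.26 to 0.22). The intervals of Rara and Rxra thus held 0, and those of Rarb and Rarg lay above it.

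Genes of retinoid uptake and storage gave mixed values. Of 5 tested, Lipe, a lipase that also cleaves retinyl esters, was higher at 22.95 and 13.0 CPM (0.82), and Ttr, the plasma carrier transthyretin, was lower at 14.6 and 41.2 CPM (-1.50). Members held 56 Ttr UMIs, and of the 158 in Cyp26b1-zero barcodes 19.0% lay in 1 barcode. Fabp5, a carrier of fatty acids and retinoic acid, stood at 757 and 563 CPM (0.43, interval 0.35 to 0.51). Enzymes that make retinoic acid were hardly found, since only 2 of 18 genes of that list reached 20 CPM, Adh5 and Rdh14, at log2 ratios of 0.07 and 0.12. Aldh1a1, a retinal dehydrogenase, had 11 UMIs in each group, and Aldh1a2 had none. Cyp26a1, the close relative of Cyp26b1, had 7 UMIs in members and 2 in Cyp26b1-zero barcodes, and Cyp26c1 had 0 and 1.

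**Figure D2:**
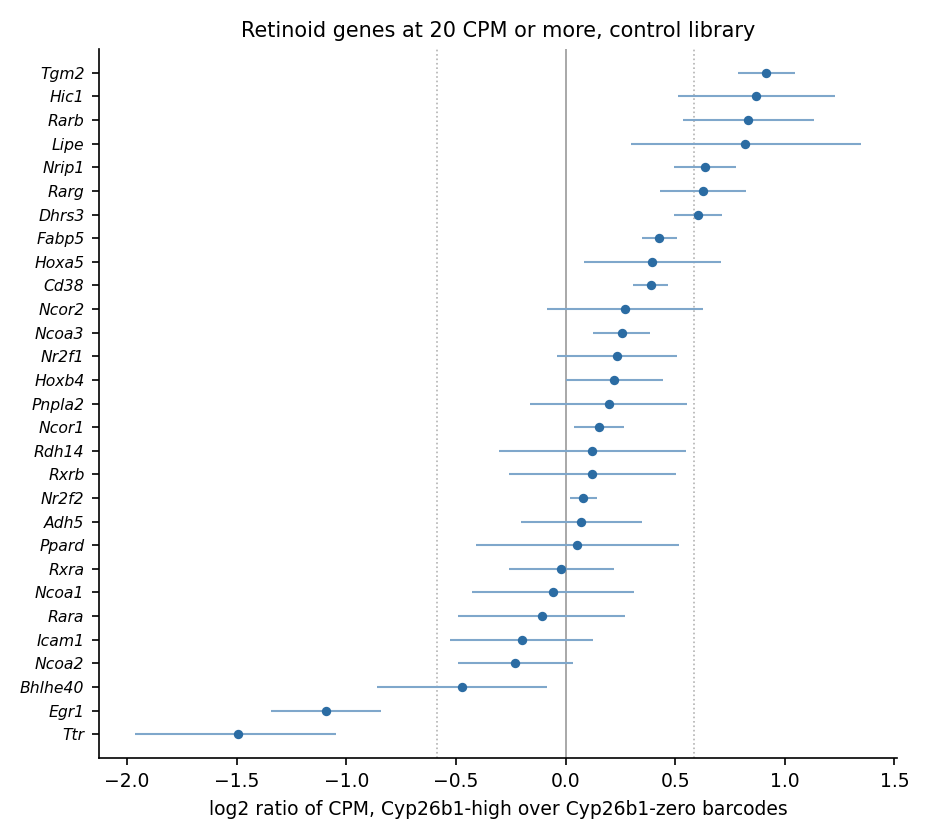
Log2 ratio of CPM in 630 Cyp26b1-high over 630 Cyp26b1-zero control barcodes (x axis) for 29 of the 30 retinoid genes at 20 CPM or more (y axis), with exact 95% intervals of counting error and dotted lines at 1.5-fold. Tgm2 lies at the top at 0.92 and Ttr at the bottom at -1.50.

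Maf, the gene that the study deletes, was itself lower in Cyp26b1-high LSECs of control mice. It stood at 2560 CPM in members and 4073 CPM in Cyp26b1-zero barcodes, a log2 ratio of -0.67 (interval -0.71 to -0.63), although 98.6% and 99.2% of barcodes held a Maf UMI. Without the limits on Vwf, Rspo3 and chemokines the ratio was -0.48, short of 1.5-fold. Of 27 endothelial transcription factors tested, Maf was the 1 past 1.5-fold lower, and Sox7 was the 1 past it higher, at 73.3 and 45.1 CPM (0.70), and short of it in 5 of 19 alternatives. Gata4, a regulator of LSEC identity, stood at 270 and 234 CPM (0.21), Erg at 149 and 148 CPM (0.01) and Nr2f2, the venous factor COUP-TFII, at 1145 and 1082 CPM (0.08).

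The largest ratios outside the retinoid genes included an ion channel, a peptide transporter and cell surface receptors. Of the 15 largest ratios in each direction, several rested on single barcodes. A share of UMIs in 1 barcode was taken within the group with the higher CPM of that gene. Hba-a1, Hba-a2 and Hbb-bs had 99.7%, 99.4% and 99.0% of their UMIs in 1 barcode, a member, and Mki67 had 71.2% in 1. In 3 Cyp26b1-zero barcodes that carried 10 or more UMIs of cholangiocyte genes lay 729 of the 739 UMIs of Spp1, 700 of 747 of Clu, 79 of 81 of Krt8, 75 of 81 of Krt18 and all 139 of Tm4sf4. The same 3 barcodes held 149 of 157 UMIs of Cp, 88 of 102 of Ambp and 89 of 112 of Ahsg. Adat1 had 17.7%, Slc45a4 13.2% and Atp13a3 51.9% of its UMIs in 1 barcode. In all, 8 of the 126 higher and 21 of the 144 lower genes had over 10% of their UMIs in 1 barcode. A rule added after these values were seen therefore took the 20 largest ratios in each direction among genes with a share of at most 10%. Single barcodes of the group with the lower CPM were not part of this rule.

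Cacna1a, the pore subunit of a voltage-gated calcium channel, led these genes with 84.0 CPM in members and 15.9 CPM in Cyp26b1-zero barcodes (2.40, interval 2.0 to 2.82). A UMI of it was found in 33.2% of members and 6.51% of Cyp26b1-zero barcodes. Slc15a2, a peptide transporter, stood at 30.2 and 7.30 CPM (2.05).

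Receptors and signalling genes followed. Gpr183, a receptor for oxysterols, stood at 34.9 and 9.12 CPM (1.94), and Ackr1, an atypical chemokine receptor, at 61.3 and 23.7 CPM (1.37). Esrrb, an orphan nuclear receptor, stood at 31.6 and 9.12 CPM (1.79) and Casz1, a zinc finger transcription factor, at 27.6 and 10.2 CPM (1.44). Inhbb, a subunit of activin B, stood at 64.4 and 27.9 CPM (1.21), and in the shallowest of 3 groups of depth its ratio was -0.06 (interval -0.97 to 0.85). Prelp, a matrix proteoglycan, stood at 173 and 83.1 CPM (1.05, interval 0.86 to 1.25). Hmga2, Itgb3, Msh6, Mlf1, Igsf23, Tspan13, Usp54, Nxpe4, Lama3 and 1110018N20Rik were also among the 20, with ratios from 1.0 to 1.52. In thinned barcodes Lama3 (0.07), Usp54 (0.46), 1110018N20Rik (0.55), Tspan13 (0.56) and Nxpe4 (0.58) were short of 1.5-fold. Itgb3 (0.30) and Msh6 (0.45) were short of it without the limits on Vwf, Rspo3 and chemokines.

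Genes lower in members held the metallothioneins, small zinc- and copper-binding proteins. Mt1 stood at 238 CPM in members and 584 CPM in Cyp26b1-zero barcodes (-1.30, interval -1.41 to -1.19), and Mt2 at 42.8 and 139 CPM (-1.70, interval -1.96 to -1.44). Slc39a8, a zinc and manganese importer, stood at 134 and 236 CPM (-0.82, interval -0.98 to -0.66). Of 5 tested metallothioneins and zinc transporters, these 3 were past 1.5-fold lower, 0 were past it higher, and Slc39a1 had a ratio of 0.23.

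Other genes of the 20 lowest ratios had diverse roles. Il13ra2, the decoy receptor of interleukin 13, stood at 15.9 and 53.7 CPM (-1.75), and Qpct, glutaminyl cyclase, at 11.5 and 33.4 CPM (-1.54), with -0.13 for Qpct in thinned barcodes. Flrt1, a cell surface leucine-rich repeat protein, stood at 40.2 and 96.9 CPM (-1.27), and in the shallowest of 3 groups of depth its ratio was -0.46 (interval -1.35 to 0.40). Rnd3, a small GTPase, stood at 59.7 and 137 CPM (-1.20). The ribonuclease genes Rnase4 and Ang, which share a start region, had ratios of -1.24 and -1.26 and cannot be counted as separate with certainty. Aox1, an aldehyde oxidase, stood at 8.87 and 22.9 CPM (-1.37), and had -0.24 with Wnt2 at 0. Gm17167, an annotated gene model, had the lowest ratio at -3.34, from 8 and 81 UMIs. Gm46565, Gm14964, Gm35533, AC109619.1, Ctnnal1, Plac8, Galnt15, Serpina3k and Fos were also among the 20. AC109619.1 had -0.52 without the limits on Vwf, Rspo3 and chemokines.

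**Figure D3:**
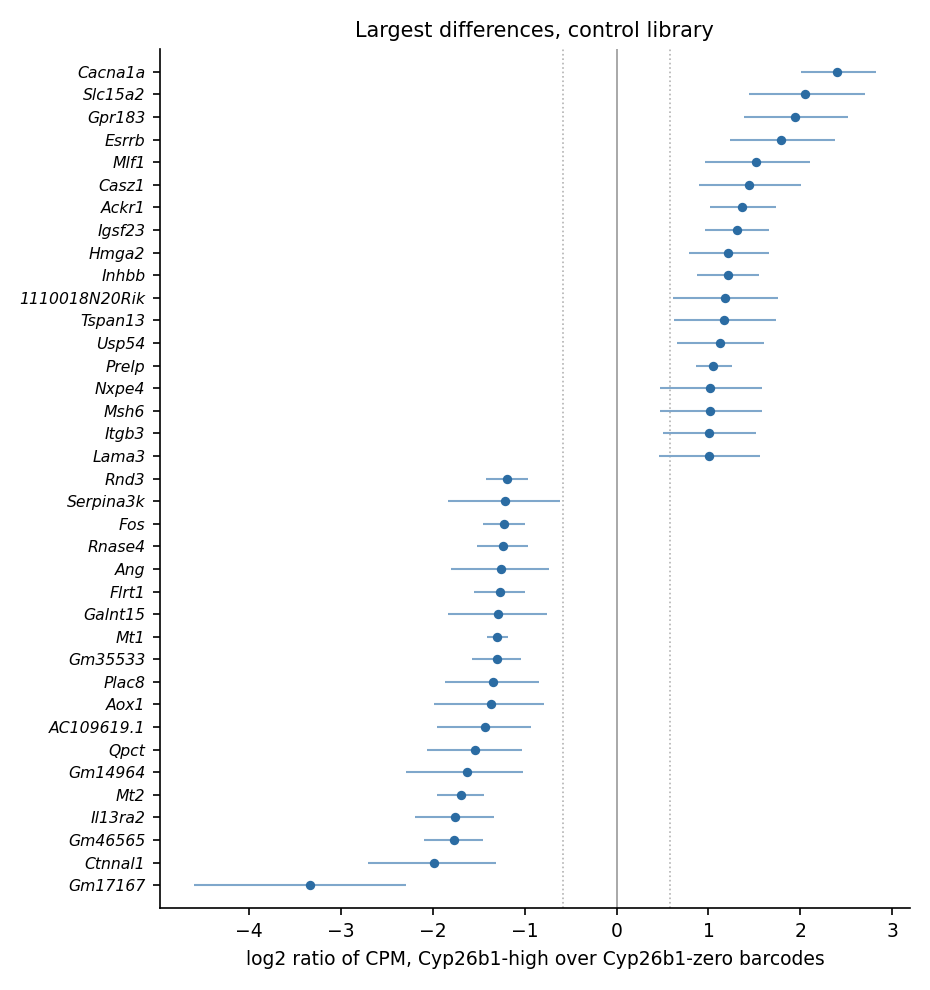
Log2 ratio of CPM in Cyp26b1-high over Cyp26b1-zero control barcodes (x axis) for 37 of the 40 genes with the 20 highest and 20 lowest ratios among genes with at most 10% of their UMIs in 1 barcode (y axis). That share was taken within the group with the higher CPM. Bars are exact 95% intervals of counting error, dotted lines mark 1.5-fold, and the values run from 2.40 for Cacna1a to -3.34 for Gm17167.

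Genes of LSEC identity differed little. Of 18 tested, 0 were past 1.5-fold higher and 2 lower, with a median of -0.05 beside 0.01 over all genes. The 2 were Lyve1 at 383 and 587 CPM (-0.61, interval -0.71 to -0.52), which was under 1.5-fold in 9 of 19 alternatives, and Enpp6, a choline phosphodiesterase, at 54.2 and 88.6 CPM (-0.71). Clec4g stood at 2755 and 2842 CPM (-0.05), Dnase1l3 at 3449 and 3621 CPM (-0.07) and Mrc1, the mannose receptor, at 2441 and 2550 CPM (-0.06). Oit3 was on the other side at 1571 and 1306 CPM (0.27).

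Genes known from continuous capillaries had a median of 0.34 over 10 tested genes. Cd9, a tetraspanin, stood at 314 and 207 CPM (0.60) and Podxl, podocalyxin, at 437 and 288 CPM (0.60, interval 0.49 to 0.71). These were the 2 past 1.5-fold higher, and Cd9 was short of it in 5 of 19 alternatives, with 0.41 as the lowest. Ly6a stood at 1018 and 724 CPM (0.49), and Cd34 at 30.8 and 20.6 CPM (0.58).

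Among angiocrine ligands, Hgf, hepatocyte growth factor, was higher at 213 and 121 CPM (0.82, interval 0.65 to 0.98) and Ccn1 was lower at 15.6 and 29.4 CPM (-0.91), of 12 tested. Wnt2, a pericentral ligand that sustains the metabolic zonation of hepatocytes, stood at 318 and 242 CPM (0.39), and Bmp2, the regulator of hepatic hepcidin, at 2077 and 1732 CPM (0.26). Inhbb was the 1 of 20 tested BMP and TGF-β pathway genes past 1.5-fold. In the Notch pathway, of 11 tested, Dll1 was higher at 25.6 and 14.9 CPM (0.78) and Jag1 lower at 14.1 and 26.1 CPM (-0.89), both ligands. No tested gene of VEGF and Tie receptors (11), MHC presentation (9), leukocyte adhesion (9), flow response (12) or basement membrane (12) was past that size, and Col4a1 stood at 847 and 639 CPM (0.41).

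Stress genes split in 2 directions. Of 17 tested, the chaperone genes Hspa8 at 1389 and 918 CPM (0.60), Hsph1 at 77.4 and 44.6 CPM (0.80) and Hspa1a (0.68) were higher, and the immediate early genes Fos at 60.0 and 140.5 CPM (-1.23), Egr1, Ier3 and Fosb were lower, whereas Jun stood at 413 and 412 CPM. Of 22 interferon-stimulated genes tested, 3 were past 1.5-fold lower, namely Ifit1, Igtp and Ifit3b. Of 22 lysosomal genes tested, 0 were higher and 1, Lgmn, was lower (-0.61).

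RNA of other cells moved with part of these genes. Of 10 tested hepatocyte genes, 5 were past 1.5-fold lower in members and 0 higher, and their summed level was 3611 CPM in members and 4371 CPM in Cyp26b1-zero barcodes, most of it Apoe. The large-vessel list summed to 238 and 463 CPM, with Clu the 1 gene of 5 past 1.5-fold. Of the Clu UMIs in Cyp26b1-zero barcodes 53.1% lay in 1 barcode. Of 12 stellate cell genes, 2 were tested, among them Ecm1 (-0.24). Of 12 macrophage genes, 2 were tested, C1qb (-0.65) and Fcer1g (0.13), and the sum was 217 and 243 CPM. B cell, T and NK cell, neutrophil and lymphatic lists had 0 tested genes. Mitochondrial UMIs were 4.86% in members and 5.14% in Cyp26b1-zero barcodes, and the nuclear-retained RNA list, mostly Malat1, had a median of -0.29. The part of these RNAs in the ratios above was not tested. All 40 genes of the added rule stayed past 1.5-fold without the tenth of barcodes highest in hepatocyte share. They also did without the expected number of doublets. However, these genes were chosen for the largest ratios in the same contrast. The alternatives kept 592 and 611 matched barcodes in each group, against 630 in the main contrast. They therefore cannot tell what part RNA of other cells or doublets had.

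Levels were also followed over the number of Cyp26b1 UMIs, just below and above the limit of 2. Maf stood at 3991 CPM with 0 UMIs, 3815 with 1, 3513 with 2, 2906 with 3 and 2541 with 4 to 5, and at 2462 with 6 to 11 and 2544 with 12 or more. Mt1 stood at 571 CPM with 0 and 428 with 2, and at 239 with 4 to 5 and 203 with 12 or more. Flrt1 stood at 90.1, 95.6 and 81.4 CPM with 0, 1 and 2 UMIs and at 35.7 with 3. The Flrt1 intervals with 2 UMIs (57.9 to 111) and 3 UMIs (17.8 to 63.9) overlapped, so these values do not place a step. For Maf the values from 4 UMIs on ran from 2462 to 2544 CPM. Cacna1a stood at 20.6 CPM with 0, 28.8 with 1, 37.6 with 2, 52.0 with 3 and 109 with 4 to 5. Dhrs3 stood at 285 CPM with 0, 330 with 1, 359 with 2, 325 with 3 and 512 with 12 or more. Tgm2 stood at 185 CPM with 0, 213 with 1, 192 with 2, 328 with 3 and 391 with 12 or more. Rarb stood at 36.2 CPM with 0, 53.1 with 1, 71.0 with 2, 39.0 with 3 (interval 20.1 to 68.1), 60.1 with 4 to 5 and 65.2 with 12 or more. Neither Dhrs3 nor Rarb rose at every step, since both were lower with 3 UMIs than with 2. Depth differed among these classes, from a median of 4057.5 UMIs with 3 Cyp26b1 UMIs to 9619.5 with 12 or more.

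**Figure D4:**
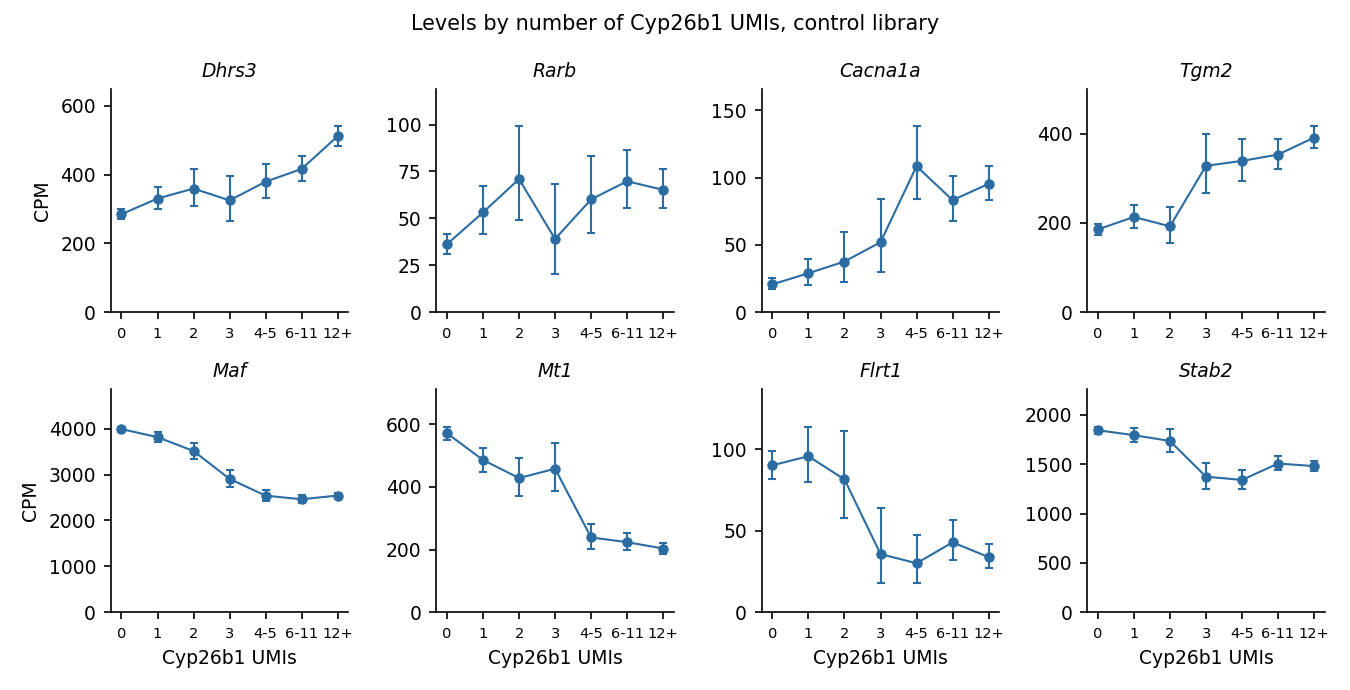
CPM (y axis, from 0) of 8 genes in control barcodes of the gate by number of Cyp26b1 UMIs (x axis), with exact 95% Poisson intervals. Maf, Mt1 and Flrt1 are low from 4 UMIs on, and Cacna1a is at 20.6 with 0 and 95.4 with 12 or more.

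LSECs differ along the sinusoid between portal and central vein. The 1987 barcodes were therefore ordered by a score from 13 pericentral genes, such as Wnt2, Kit and Thbd, and 15 periportal genes, such as Efnb2, Dll4 and Msr1, without Cyp26b1, Dhrs3 or Rarb, and split in 4 equal bins. Cyp26b1 stood at 1043 CPM in the most central bin, 875 and 745 in the middle bins and 575 in the most portal bin. Members were 42.9% (38.5 to 47.3), 41.3%, 36.6% and 26.0% (22.2 to 30.0) of the bins in that order. After thinning to 2100 UMIs, 33.6%, 28.8%, 24.9% and 18.1% held at least 2 Cyp26b1 UMIs. Dhrs3 went from 459 to 240 CPM and Rarb from 74.1 to 22.4 CPM between the outer bins. Cacna1a did not follow that order, with 45.2, 49.7, 54.6 and 53.3 CPM, and neither did Maf, with 3274, 3485, 3558 and 3081 CPM.

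The contrast was also made within each bin. With 162, 160, 164 and 122 matched barcodes in each group, the log2 ratio of Dhrs3 was 0.52, 0.56, 0.57 and 0.48, and that of Maf -0.58, -0.79, -0.70 and -0.46. Rarb had 0.55, 0.67, 0.49 and 1.43, and the interval of the 0.49 held 0 (-0.13 to 1.13). Cacna1a had 3.55, 3.14, 3.06 and 1.39, and Mt1 -1.63, -1.14, -1.32 and -1.19. Flrt1 had -0.53 in the most central bin, with an interval that held 0 (-1.22 to 0.14), and -1.62, -1.48 and -1.19 in the others. Members were thus found in every bin, and both zonation lists held genes on either side. Of 14 tested pericentral genes, 2 were past 1.5-fold higher, Lhx6 at 25.8 and 13.0 CPM (0.99) and Amigo2 (0.74), and 2 lower, the receptor tyrosine kinase Kit at 238 and 428 CPM (-0.85, interval -0.96 to -0.73) and the galectin Lgals1 at 325 and 511 CPM (-0.65). Of 17 tested periportal genes, Itgb3 was higher, and the scavenger receptor Msr1 at 257 and 457 CPM (-0.83), Chst2 at 84.2 and 169 CPM (-1.0), Jag1 and Clu were lower. Clu had a ratio of 1.04, in the other direction, without barcodes that held 10 or more cholangiocyte or erythroid UMIs.

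Cyp26b1-high LSECs were fewer in the gate of the Maf LSEC-KO library than in that of the control, and the chemokine limit set how much fewer. Of 866 barcodes in the same gate, 78 held at least 2 Cyp26b1 UMIs (9.01%, 7.18 to 11.1), against 36.7% in the control, and 3.11% of 803 did after thinning to 2100 UMIs, against 26.4%. Without the chemokine limit 727 of 2843 Maf LSEC-KO barcodes (25.6%, 24.0 to 27.2) and 1305 of 3813 control barcodes (34.2%, 32.7 to 35.8) were Cyp26b1-high, at median depths of 13573 and 8312 UMIs. Thinned to 2100 UMIs, these shares were 6.28% and 21.9%. Without the Vwf and Rspo3 limits as well they were 29.9% and 35.1%, and 8.21% and 22.3% after thinning. Maf stood at 201 CPM in the Maf LSEC-KO gate and 3366 CPM in the control gate. Cyp26b1 stood at 83.2 and 818 CPM, a log2 ratio of knockout over control of -3.30 (interval -3.44 to -3.16), which was -2.70 in thinned barcodes, -1.83 without the chemokine limit and -1.61 without all 3 limits. Dhrs3 stood at 73.0 and 362 CPM (-2.31) and Rarb at 5.04 and 50.8 CPM (-3.33), and without all 3 limits their ratios were -1.95 and -2.58. Cacna1a stood at 63.0 and 50.6 CPM (0.32, interval 0.12 to 0.51) and Tgm2 at 335 and 263 CPM (0.35). With 1 library each, these are differences between libraries. The gate kept 1987 of 5664 control barcodes and 866 of 7091 Maf LSEC-KO barcodes. The Vwf limit left out 149 and 1083, and the chemokine limit left out 1826 and 1977. Of the 1977 Maf LSEC-KO barcodes over the chemokine limit 649 (32.8%) held at least 2 Cyp26b1 UMIs, at a median depth of 16553 UMIs, and 6.96% did after thinning. Of the 1826 such control barcodes 31.5% did, and 17.4% after thinning.

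Barcodes of the Maf LSEC-KO library that still held Maf did not have the control level of Cyp26b1. In 96 barcodes with at least 2 Maf UMIs, Maf stood at 1889 CPM and Cyp26b1 at 99.3 CPM (interval 74.8 to 129), and 9.38% held at least 2 Cyp26b1 UMIs. In 700 barcodes with 0 Maf UMIs Cyp26b1 stood at 85.4 CPM (77.0 to 94.4), and 9.0% held at least 2. Dhrs3 and Rarb differed between these barcodes. Dhrs3 stood at 182 CPM (149 to 222) with Maf and 62.1 CPM (55.0 to 69.9) without, and Rarb at 32.5 CPM (19.3 to 51.4) and 2.23 CPM (1.07 to 4.11).

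**Figure D5:**
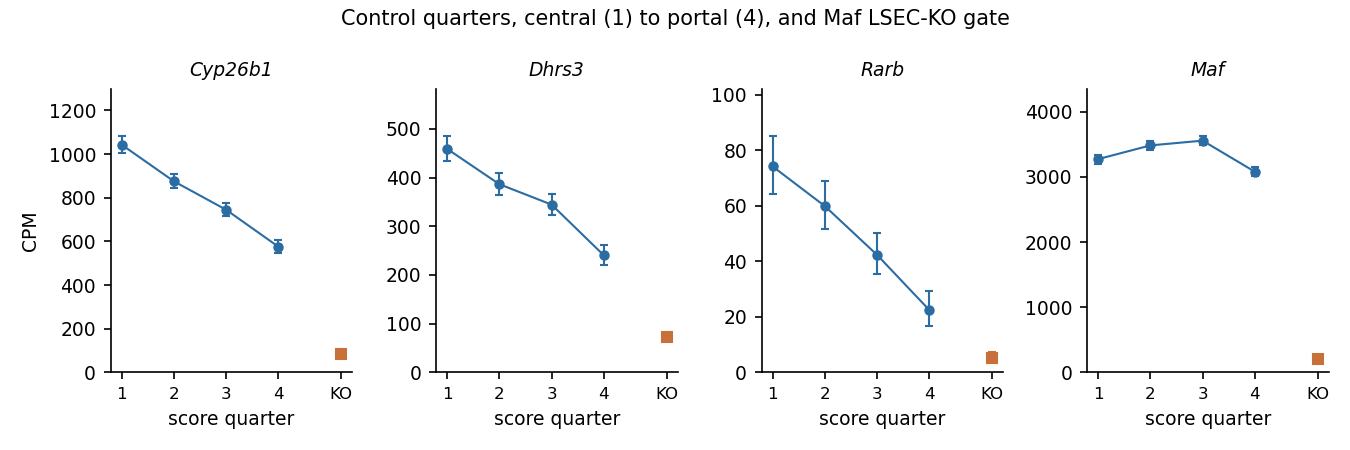
CPM (y axis, from 0) of Cyp26b1, Dhrs3, Rarb and Maf in 4 equal bins of control barcodes from central (1) to portal (4), in blue, and in the Maf LSEC-KO gate (KO, orange), with exact 95% Poisson intervals. Cyp26b1 goes from 1043 to 575 CPM over the bins and is at 83.2 CPM in the Maf LSEC-KO gate.

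The contrast of Cyp26b1-high and Cyp26b1-zero barcodes was also made in the Maf LSEC-KO library, with 78 barcodes in each group. Counting error is wide at this number, and of 7829 genes at 20 CPM or more 811 (10.4%) were higher and 1011 (12.9%) lower, 23.3% in all. Of the 20 genes highest in control members, 14 had a ratio above 0 there and 5 were past 1.5-fold in the same direction, while 3 were past it in the opposite direction. Of the 20 lowest, 10 had a ratio below 0, 9 were past 1.5-fold in the same direction and 5 in the opposite. No minimum CPM in this library was set for these genes, unlike for the shares over 7829 genes, so the 2 cannot be compared. Several of the calls rested on few UMIs in members and Cyp26b1-zero barcodes. AC109619.1 had 0 and 1 and Ang 1 and 3, and Flrt1, in the opposite direction, had 3 and 1. Cacna1a stood at 55.2 and 39.3 CPM (0.49) and Dhrs3 at 114 and 97.4 CPM (0.22), and Rarb had 6 and 0 UMIs. Maf was higher in these members, at 208 and 135 CPM (0.62, interval 0.20 to 1.05), opposite to the control. In this gate 96 of 866 barcodes, those with at least 2 Maf UMIs, held 1046 of the 1116 Maf UMIs. Maf UMIs of this library thus lay in few barcodes, a spread that the counting interval does not cover. Of the 96 barcodes 9 (9.38%) were Cyp26b1-high, against 9.0% of 700 barcodes with 0 Maf UMIs.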

How the data were processed

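LSECs of 1 control and 1 Maf LSEC-KO pool of 3 mice were measured. The values deposited by the authors are raw UMI counts per gene and barcode (32285 genes, barcodes of at least 500 UMIs), and the submitters' processing notes name Cell Ranger 6.0.2, Seurat 5.0.1 and mm10. Control barcodes held 47681895 UMIs and Maf LSEC-KO barcodes 89872764. For the contrasts, gated barcodes were paired by depth in bins of 0.25 on the log2 scale with a fixed random draw. Their counts were summed and divided by their total UMIs, less those of Cyp26b1 and of mitochondrial and ribosomal protein genes. Values of whole libraries and of barcodes outside the gate kept Cyp26b1 in that total. Intervals are exact at 95% (Poisson, conditional binomial, Clopper-Pearson, scipy 1.17.1) and cover counting error only. Without replicates no test was run, and 1.5-fold at 20 CPM or more stands in for a call. The ratio and its interval were checked on counts simulated with Poisson error and no spread between barcodes. The gate, the gene lists and the bins along the sinusoid were not simulated.

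The named genes were the 3 markers, all retinoid genes, the 15 largest and 15 smallest ratios, up to 4 genes per list, Maf, and the added 20 each way. Some genes that these rules take in are not reported here, while counts and medians of lists include them. Members and lists were chosen with earlier results of these data known. Doublets were not removed. Scrublet in scanpy 1.11.5 marked 0 of 4961 barcodes by its own limit, so 1 alternative left out the 197 with the highest scores. Other alternatives changed the Cyp26b1 limit, matching, scaling, minimum CPM and barcode filters. Bulk RNA-seq and ATAC-seq were not analysed here.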

Additional observations from a re-analysis of the deposited data

Results flagged for a closer look

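For 4 of the genes reported here the ratio of Cyp26b1-high over Cyp26b1-zero barcodes was past 1.5-fold in opposite directions in the 2 libraries, with both 95% intervals of counting error away from 0. The difference between the libraries was not tested, and the Maf LSEC-KO contrast holds 78 barcodes in each group. Maf had a log2 ratio of -0.67 for control barcodes and of 0.62 for Maf LSEC-KO barcodes. In the Maf LSEC-KO gate 96 of 866 barcodes held 1046 of 1116 Maf UMIs, a spread that the counting interval does not cover. Egr1, the immediate early gene, had -1.09 and 0.81, and Lgmn, the lysosomal protease legumain, had -0.61 and 1.15. Plac8 had -1.35 and 1.38.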

How the results depend on the processing

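Processing was varied in 20 ways, and in 3 more that were chosen after seeing the data. Among the values that answer a comparison, 112 stayed within their limits and 23 moved. Dhrs3 ranged from 0.54 to 0.73 on the log2 scale and Rarb from 0.58 to 2.06, with 0.73 in thinned barcodes and 2.06 in barcodes with Wnt2 at 0. Of the 40 genes of the added rule, at least 33 stayed past 1.5-fold in the same direction. The number of Cyp26b1-high barcodes was 633 with a limit of 3 UMIs, 567 with 4, 683 with at most 10% mitochondrial UMIs, 661 without the tenth highest in hemoglobin share, 273 with Wnt2 at 0, 645 with at least 3000 UMIs and 1512 without the limits on Vwf, Rspo3 and chemokines. Without those limits, 73 genes were past 1.5-fold higher. Genes higher and lower were 60 and 48 with a minimum of 50 CPM and 351 and 530 with 5 CPM. They were 334 and 397 in thinned barcodes and 363 and 445 with Wnt2 at 0, both of which hold fewer UMIs. The knockout to control log2 ratio of Cyp26b1 was -2.70 in thinned barcodes, -3.47 with scaling to all genes, -3.45 with at least 3000 UMIs, -1.83 without the limit on chemokines and -1.61 without those on Vwf, Rspo3 and chemokines, the last 2 chosen after seeing the data.

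Reversals were seen in genes with over 10% of their UMIs in 1 barcode, within the group with the higher CPM. Hba-a1, Hba-a2 and Hbb-bs had -0.58, -1.0 and -0.63 with a limit of 4 UMIs, -4.70, -3.00 and -3.14 with Wnt2 at 0, -0.12, -0.42 and -0.15 without limits on Vwf, Rspo3 and chemokines, and -0.59, -0.00173 and -0.53 without barcodes holding 10 or more cholangiocyte or erythroid UMIs. Mki67 had -1.11 with at most 10% mitochondrial UMIs, -0.77 with at least 3000 UMIs and -0.97 without those cholangiocyte or erythroid barcodes. Clu had 1.03 without the tenth highest in hepatocyte share and 1.04 without those barcodes, and Krt8 had 0.000593 in the former. Log2 ratios against a count of 0 were left out.

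No paired analysis was possible because each condition had 1 library. At this depth a gene near 20 CPM rests on few UMIs per group, and mouse, library and genotype cannot be told apart.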
